A study of Mus musculus with 6 samples.

Results

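The genes described here are 10 regulators of the G1 phase of the cell cycle: the D cyclins Ccnd2 and Ccnd3, their kinases Cdk4 and Cdk6, cyclin E1 (Ccne1), the inhibitors Cdkn1b (p27) and Cdkn2c (p18), and the pocket proteins Rb1, Rbl1 (p107) and Rbl2 (p130). They were taken by gene symbol from the deposited count table, and all 10 were found among its 49997 gene symbols. RNA came from small pre-B cells that were purified by flow cytometry from C57BL/6 marrow, the mice being 6 to 12 weeks old, with 3 libraries from wild-type (WT) mice and 3 from ΔrsCBE mice. ΔrsCBE names a deletion (Δ), of which the labels used here give neither the interval nor the number of animals behind a library. P-values therefore measure the spread between these libraries, which may be technical.

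D cyclins activate Cdk4 and Cdk6, and cyclin E activates Cdk2. Together these kinases phosphorylate the pocket proteins, which otherwise hold E2F transcription factors in check, so that genes for DNA replication are switched on. Cdkn2c binds Cdk4 and Cdk6, and Cdkn1b binds cyclin-CDK complexes more broadly. In B-cell development large pre-B cells divide under signals from the interleukin-7 receptor and the pre-B-cell receptor, with cyclin D3 as the main D cyclin. They then leave the cycle as small pre-B cells, which rearrange their light chain genes. Rbl2 is the pocket protein typical of resting cells, whereas Rbl1 is itself an E2F target and is made mainly in cycling cells.

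Total counts per library ranged from 428106 to 1300805, so 3 counts, taken as the detection floor, corresponded to 2.38 to 7.36 CPM (the count relative to the TMM-scaled library size). WT replicate 2 was the shallowest library. Values per library are listed in the order of replicates 1 to 3. Pre-B genes were well expressed, with the sum over 9 markers such as Pax5, Cd79a and Rag1 between 11201 and 13437 CPM in WT and between 12035 and 12649 CPM in ΔrsCBE. Of 7 markers of large pre-B and pro-B cells, Dntt, Igll1, Vpreb1 and Kit had at most 6 counts in any library, whereas Il2ra, which small pre-B cells also carry, Spn and Bst1 had 39 counts or more, and the list summed to 917 to 971 CPM in WT and 909 to 1023 CPM in ΔrsCBE. The 8 T and NK cell markers summed to at most 2.53 CPM and the 7 erythroid markers to at most 0.79 CPM, with 6 markers of each list at 0 in all libraries. The 7 myeloid markers summed to 53.1 to 83.4 CPM in WT and 54.5 to 68.2 CPM in ΔrsCBE, mostly from Itgam, while Lyz2 and S100a9 were at 0 in WT and at 1 to 4 counts in ΔrsCBE. Of the other lists, the 6 mature B markers summed to 462 to 566 and 419 to 588 CPM, and the 4 plasma cell markers to 58.9 to 79.5 and 54.5 to 90.9 CPM. Counts of Xist and Y-linked genes showed a female pattern in ΔrsCBE replicates 2 and 3 and a male pattern in the other 4 libraries, so values for ΔrsCBE replicate 1 against WT are given where a result turns on it.

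The promoters of Rbl1, Rbl2, Cdkn2c and Ccnd3 are shown first, because each holds a match to a motif of cell-cycle regulators that was searched for in all members with a window. Windows of 300 bases (250 before to 50 after a start site, RefSeq on GRCm38.p6) were given for 8 of the 10 members, 10 windows in all, and Ccnd2 and Rb1 had none. Both strands were searched for an E2F core (the letters TTCCCGC, the letters TTGGCGC, the letters TTGCCGC or the letters TTCGCGC), for the core of the cell-cycle homology region, CHR (TTTGAA), and for a FOXO core (GTAAACA). The E2F core occurred in 2 of the 10 windows, those of Rbl1 and of the start site of Cdkn2c at the higher coordinate, and in 9.57% of all 32851 windows. The CHR core occurred in the Rbl2 window and in 17.9% of all windows, and the FOXO core in the Ccnd3 window at the lower coordinate and in 3.65% of all windows. The windows of Ccne1, Cdk4, Cdk6 and Cdkn1b, and the other windows of Cdkn2c and Ccnd3, held no match. These matches describe letters and show no binding. The sequences below run 5′ to 3′ towards the start site, with the matched core in capitals: for Rbl1 (chr2:157204535-157204784, minus strand) and Rbl2 (chr8:91069807-91070056, plus strand) the 250 bases before it, and for Cdkn2c (chr4:109666763-109666792, minus strand), whose window lies inside the annotated gene, and Ccnd3 (chr17:47504801-47504830, plus strand) 30 bases that hold the match.
Rbl1: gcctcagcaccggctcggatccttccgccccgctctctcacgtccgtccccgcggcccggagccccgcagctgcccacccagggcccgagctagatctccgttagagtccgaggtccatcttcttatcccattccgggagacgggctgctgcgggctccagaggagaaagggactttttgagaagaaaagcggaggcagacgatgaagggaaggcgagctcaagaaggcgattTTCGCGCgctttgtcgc
Rbl2: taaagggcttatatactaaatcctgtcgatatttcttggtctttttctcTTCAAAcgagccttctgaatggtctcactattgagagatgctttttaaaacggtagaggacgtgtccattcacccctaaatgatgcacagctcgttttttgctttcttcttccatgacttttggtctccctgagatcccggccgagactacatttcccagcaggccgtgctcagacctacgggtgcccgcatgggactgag
Cdkn2c: ggggcccggccTTCCCGCtcccgcggcgcc
Ccnd3: ggtctacTGTTTACttcctgggcagcgttc
The E2F core began 17 bases before the start site of Rbl1 and 25 bases before that of Cdkn2c. The letters in capitals in Rbl2 are the reverse complement of the CHR core and began 201 bases before the start, and those in Ccnd3 are the reverse complement of the FOXO core and began 243 bases before it.

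Of the 10 members, 9 had enough counts to be tested between the genotypes and Ccne1 did not. None of the 9 passed an adjusted p-value of 0.05 in edgeR's quasi-likelihood test, against 1.69% of all 7792 tested genes (1.49% lower and 0.205% higher in ΔrsCBE). At an unadjusted p-value under 0.05 there were 2 (Rbl1 and Cdkn2c, both lower in ΔrsCBE), against 10.2% of all genes. DESeq2 called 0 of the 9, against 1.18% of all genes, and had 1 at an unadjusted p-value under 0.05, against 5.94% of all genes. The median log2 fold change of the 9 was 0.08, with 4 negative and 5 positive values, beside 0.01 over all tested genes. For 3 of the 9 the CPM ranges of the genotypes did not overlap (Rbl1 lower, Rbl2 and Ccnd3 higher), against 16.1% of all tested genes (8.92% lower and 7.23% higher). The values of the G1 genes thus had no common direction.

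**Figure D1:**
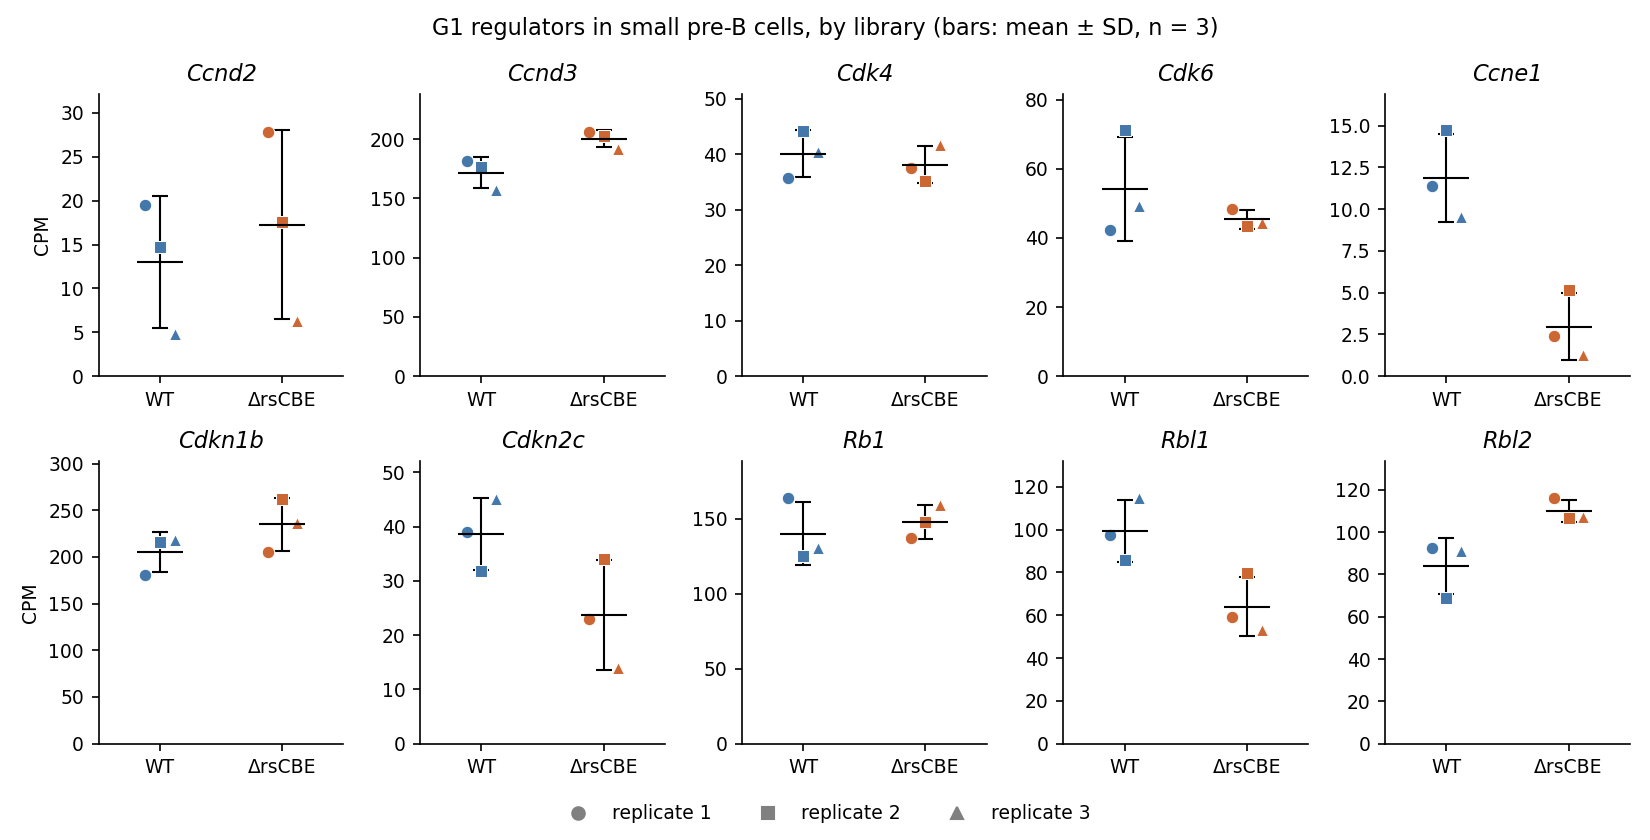
Level of each of the 10 G1 genes in CPM (vertical axis, starting at 0, with its own scale per gene) in the WT and ΔrsCBE libraries, with 1 marker per library and bars for the mean ± SD of 3 libraries. Rbl1 and Ccne1 lie lower and Rbl2 and Ccnd3 higher in all ΔrsCBE libraries, while Ccnd2 spreads widely in both genotypes.

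Among the pocket proteins, Rbl1 (minus strand of chromosome 2, 157145893 to 157204534; all gene positions are from GENCODE M21, build GRCm38) had the smallest p-value of the members. It had 97.3, 85.8 and 115 CPM in WT against 59.3, 79.6 and 53.0 CPM in ΔrsCBE. All ΔrsCBE libraries were below all WT libraries, with ΔrsCBE replicate 2 close to WT replicate 2. The means were 99.3 ± 14.6 and 64.0 ± 13.9 CPM (SD, n = 3). This was a log2 fold change of -0.66 (SE 0.19), its 95% interval being -1.06 to -0.26. Rbl1 ranked 188 of the 7792 genes by p-value, and with an edgeR adjusted p-value of 0.0940 it missed the threshold. Without ΔrsCBE replicate 2 its log2 fold change was -0.86 and its edgeR adjusted p-value 0.0160, the lowest of a range that reached 0.556 over the alternatives. In ΔrsCBE replicate 1 against WT, all with the male pattern, the log2 fold change was -0.79. The genes of mitosis were lower in the same libraries (median log2 fold change -1.17, with 11 of 13 tested genes past the threshold), and their part in the values of Rbl1 was not tested. In bulk RNA, fewer cells of a kind and less RNA per cell cannot be told apart. A processed pseudogene, Gm14277, overlaps it on the opposite strand and had 55 counts over all libraries, against 408 for Rbl1.

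Rbl2 (chromosome 8, 91070057 to 91123844, plus strand), the p130 pocket protein of resting cells, had 92.5, 68.7 and 91.1 CPM in WT against 116, 106 and 107.4 CPM in ΔrsCBE. The ΔrsCBE libraries lay close together and above each WT library. The means were 84.1 ± 13.4 and 110.0 ± 5.39 CPM (SD, n = 3). This was a log2 fold change of 0.35 (SE 0.17), its 95% interval being -0.003 to 0.71 (edgeR adjusted p-value 0.494). Its log2 fold change was opposite in sign to that of Rbl1, and neither gene passed the threshold. Aktip overlaps Rbl2 on the opposite strand, with 104 counts against 484 for Rbl2.

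The balance of the RNA counts of these pocket protein genes can be read within a library, where it does not depend on scaling. Protein levels and phosphorylation were not measured. Rbl1 made up 51.3% (95% Wilson interval 42.3% to 60.2%), 55.6% (43.3% to 67.2%) and 55.8% (49.7% to 61.7%) of the counts of Rbl1 and Rbl2 together in WT. In ΔrsCBE replicates 1 to 3 it made up 33.8% (26.6% to 41.8%), 42.8% (35.8% to 50.1%) and 33.1% (25.5% to 41.6%). Counts of Rbl1 exceeded those of Rbl2 in each WT library, and counts of Rbl2 exceeded those of Rbl1 in each ΔrsCBE library. The mean log2 ratio of Rbl1 to Rbl2 was 0.24 ± 0.15 in WT against -0.80 ± 0.33 in ΔrsCBE (SD, n = 3), with ΔrsCBE minus WT at -1.05. The exact two-sided permutation p-value was 0.1, the smallest that 3 libraries against 3 can give, and 0.2 after Benjamini-Hochberg adjustment over the 4 ratios compared. The difference lay between -1.24 and -0.94 when single libraries were left out, and it was -1.21 for ΔrsCBE replicate 1 against WT. Wilson intervals and the floor describe the counting error of reads alone. No molecular identifiers mark single molecules, so copies of the same molecule may be counted apart and the intervals may be too narrow.

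Rb1 (chromosome 14, 73183673 to 73325822, minus strand), the retinoblastoma protein and founding member of the family, had 164, 125 and 131 CPM in WT against 137, 148 and 159 CPM in ΔrsCBE. The groups overlapped, and the mean was 139.9 ± 20.97 CPM in WT against 148 ± 11.2 CPM in ΔrsCBE (SD, n = 3). Its log2 fold change in edgeR was 0.08, with a 95% interval of -0.24 to 0.40 (edgeR adjusted p-value 0.927), which leaves room for a change of modest size in either direction. Rcbtb2 and Lpar6 overlap Rb1 on the opposite strand, with 130 and 21 counts against 699 for Rb1.

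**Figure D2:**
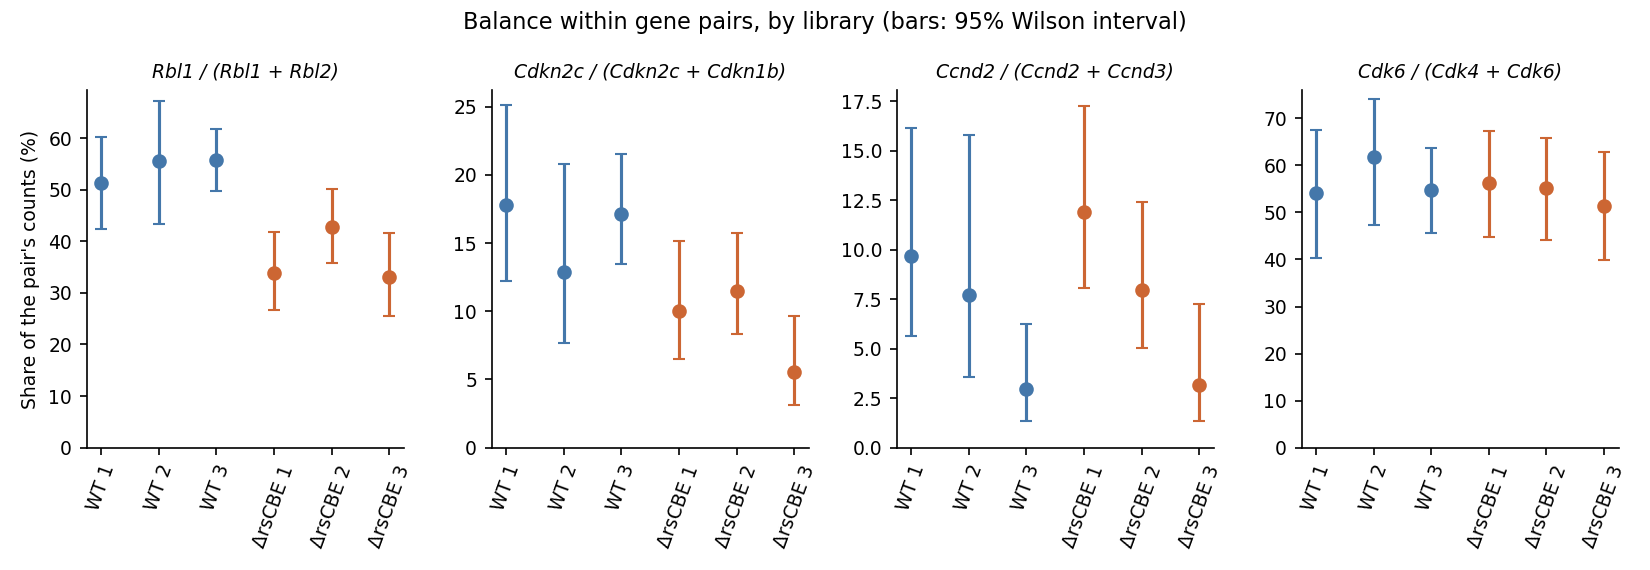
Share of a gene pair's counts that fell on 1 gene, in percent (vertical axis from 0), for each library (WT blue, ΔrsCBE orange), with bars for the 95% Wilson interval. The Rbl1 share is 51.3% to 55.8% in WT and 33.1% to 42.8% in ΔrsCBE, the Cdkn2c share also does not overlap between genotypes, and the Ccnd2 and Cdk6 shares do.

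Of the inhibitors, Cdkn2c (chromosome 4, 109660876 to 109667189, minus strand), which blocks Cdk4 and Cdk6, had the lowest log2 fold change of the tested members. It had 38.9, 31.9 and 45.1 CPM in WT against 23.0, 34.1 and 13.9 CPM in ΔrsCBE. ΔrsCBE replicate 2 lay inside the WT range and the other ΔrsCBE libraries lay below it. The means were 38.7 ± 6.63 and 23.7 ± 10.1 CPM (SD, n = 3). This was a log2 fold change of -0.73 (SE 0.30), its 95% interval being -1.35 to -0.11 (edgeR unadjusted p-value 0.0235, adjusted 0.358). Leaving out ΔrsCBE replicate 3 gave -0.48, and leaving out ΔrsCBE replicate 2 gave -1.11.

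Cdkn1b (chromosome 6, 134920401 to 134925513, plus strand), the inhibitor of cyclin-CDK complexes that accumulates in resting cells, was the member with the most counts, 1086 over all libraries. It had 180, 216 and 219 CPM in WT against 206, 263 and 236 CPM in ΔrsCBE. ΔrsCBE replicate 1 fell within the WT range and the other ΔrsCBE libraries lay above it. Its log2 fold change was 0.20 (SE 0.14), with a 95% interval of -0.09 to 0.48 (edgeR adjusted p-value 0.694). For ΔrsCBE replicate 1 against WT, the libraries with the male pattern, it was 0.00.

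Within the pair of inhibitors, Cdkn2c took 17.8%, 12.9% and 17.1% of the counts in WT and 10.1%, 11.5% and 5.56% in ΔrsCBE. The shares did not overlap between genotypes. Their Wilson intervals did for several pairs of libraries, those of WT being 12.2% to 25.1%, 7.68% to 20.8% and 13.5% to 21.5% and those of ΔrsCBE 6.53% to 15.2%, 8.31% to 15.7% and 3.13% to 9.67%. The mean log2 ratio of Cdkn2c to Cdkn1b was -2.42 ± 0.30 in WT against -3.40 ± 0.61 in ΔrsCBE (SD, n = 3), with ΔrsCBE minus WT at -0.98 (exact two-sided permutation p-value 0.1, adjusted 0.2). It was -0.64 without ΔrsCBE replicate 3.

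**Figure D3:**
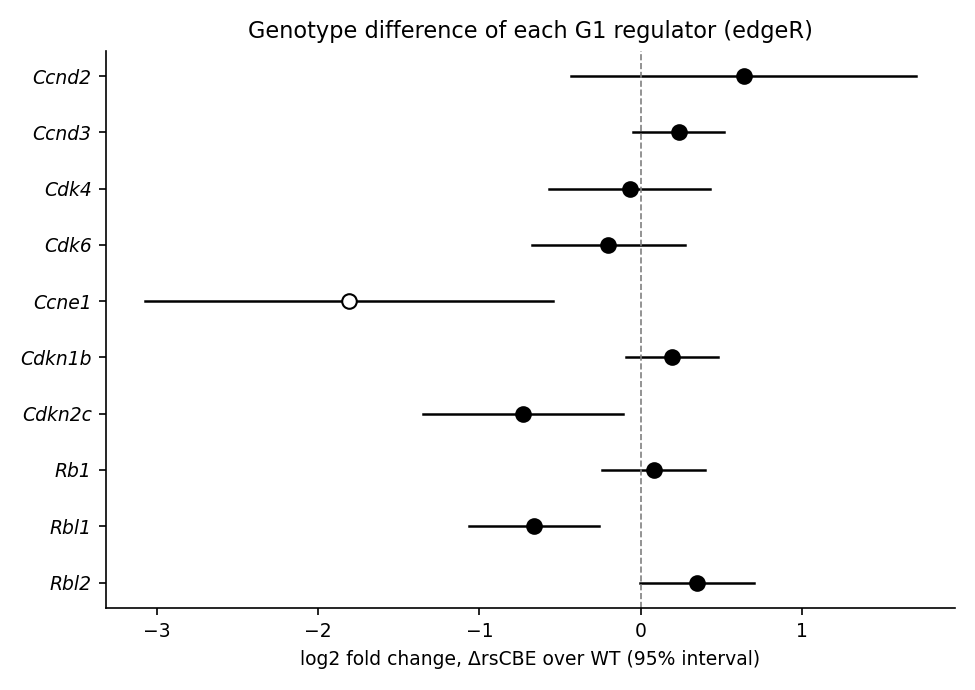
Log2 fold change of ΔrsCBE over WT for each G1 gene with its 95% interval from edgeR, with an open circle for Ccne1, which comes from the fit without the count filter. The intervals of Rbl1, Cdkn2c and Ccne1 lie below 0, and those of the other 7 genes include 0.

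Ccnd3 (chromosome 17, 47505051 to 47599691, plus strand) was by far the more abundant of the D cyclins. It had 182, 177 and 157 CPM in WT against 206, 203 and 192 CPM in ΔrsCBE. The ΔrsCBE values were all above the WT values, by a small margin. The means were 172 ± 13.2 and 200.1 ± 7.22 CPM (SD, n = 3). This was a log2 fold change of 0.24 (SE 0.14), its 95% interval being -0.05 to 0.52 (edgeR adjusted p-value 0.603). Bysl overlaps 361 bases of Ccnd3 on the opposite strand, and it had 120 counts against 900 for Ccnd3. The annotation also lists a processed pseudogene, Ccnd3-ps.

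Ccnd2 (chromosome 6, 127125162 to 127152193, minus strand), a D cyclin that responds to mitogens, was weakly expressed, with between 5 and 23 counts per library. It had 19.5, 14.7 and 4.75 CPM in WT against 27.8, 17.6 and 6.31 CPM in ΔrsCBE. The spread within each genotype exceeded the difference between them. The log2 fold change was 0.64 with a 95% interval of -0.43 to 1.71 (edgeR adjusted p-value 0.758), and it was -0.0067 without WT replicate 3. For ΔrsCBE replicate 1 against WT, the libraries with the male pattern, it was 1.32, and this replicate had the highest Ccnd2 value of the ΔrsCBE libraries. The third D cyclin gene, Ccnd1, had 0 counts in all libraries. Ccnd2 made up 2.94% to 9.68% of the counts of Ccnd2 and Ccnd3 in WT and 3.18% to 11.9% in ΔrsCBE, and the mean log2 ratio differed by 0.17 (exact two-sided permutation p-value 0.7, adjusted 0.7). For ΔrsCBE replicate 1 against WT that difference was 1.06.

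The kinases partnered by the D cyclins overlapped between the genotypes. Cdk4 (chromosome 10, 127063534 to 127067920, plus strand) had 35.7, 44.1 and 40.4 CPM in WT against 37.5, 35.1 and 41.7 CPM in ΔrsCBE. Cdk6 (chromosome 5, 3341485 to 3531008, plus strand) had 42.2, 71.1 and 49.1 CPM in WT against 48.4, 43.4 and 44.2 CPM in ΔrsCBE. WT replicate 2, the shallowest library, gave the highest value of each. The log2 fold change of Cdk4 was -0.07 with a 95% interval of -0.57 to 0.43 (edgeR adjusted p-value 0.972). That of Cdk6 was -0.20 with a 95% interval of -0.68 to 0.28 (edgeR adjusted p-value 0.842), and it was -0.03 without WT replicate 2 and -0.32 without WT replicate 1. Cdk6 took 54.2% to 61.7% of the counts of the pair in WT and 51.5% to 56.3% in ΔrsCBE, and the mean log2 ratio differed by -0.15 (exact two-sided permutation p-value 0.6, adjusted 0.7), or by -0.0089 without WT replicate 2. Tspan31 overlaps Cdk4 on the opposite strand, with 8 counts in all.

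Ccne1 (chromosome 7, 38097984 to 38107534, minus strand), the cyclin that drives Cdk2 at the entry into S phase, was too low for the count filter. It had 7, 6 and 12 counts in WT and 2, 5 and 1 counts in ΔrsCBE, which is 11.4, 14.7 and 9.50 CPM against 2.42, 5.17 and 1.26 CPM. Each ΔrsCBE library was below each WT library, and ΔrsCBE replicates 1 and 3 were below 3 counts. In the fit without the count filter its log2 fold change was -1.81 (SE 0.65), with a 95% interval of -3.08 to -0.54 (edgeR unadjusted p-value 0.00508, adjusted 0.255 over 17435 genes). This rests on 25 counts in WT and 8 in ΔrsCBE, and no call was made.

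Levels of different genes were compared per kilobase of annotated exon (RPKM, exons merged over the GENCODE basic transcripts). In WT the order was Ccnd3 with 70.2 ± 5.37 RPKM, Cdkn1b with 45.0 ± 4.71, Rb1 with 30.04 ± 4.50, Rbl1 with 20.4 ± 3.003, Cdk4 with 19.5 ± 2.06, Rbl2 with 17.1 ± 2.71, Cdkn2c with 14.4 ± 2.47, Ccne1 with 5.93 ± 1.32, Cdk6 with 4.70 ± 1.31 and Ccnd2 with 1.93 ± 1.12 RPKM (SD, n = 3). The ranges of mean ± SD overlapped for neighbours from Rbl1 to Cdkn2c, and for Ccne1 with Cdk6. In ΔrsCBE the order began in the same way, with Ccnd3 at 81.8 ± 2.95, Cdkn1b at 51.6 ± 6.24 and Rb1 at 31.8 ± 2.40 RPKM. Rbl2 came next at 22.3 ± 1.09 RPKM, ahead of Cdk4 at 18.6 ± 1.61, Rbl1 at 13.2 ± 2.85 and Cdkn2c at 8.81 ± 3.77 RPKM. Cdk6 at 3.93 ± 0.234, Ccnd2 at 2.57 ± 1.60 and Ccne1 at 1.48 ± 1.003 RPKM were last. Here the ranges of mean ± SD overlapped for Rbl1 with Cdkn2c, Cdk6 with Ccnd2 and Ccnd2 with Ccne1. The order depends on the exons counted: with the exons of all annotated transcripts Ccnd3 had 19.6 RPKM in WT, below Cdkn1b at 45.0 and Rb1 at 23.3 RPKM. Cdkn2c at 14.4 RPKM then lay above Cdk4 at 12.3 and Rbl2 at 11.1 RPKM.

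The other genes of G1 control were read from a list of 20, of which 19 were in the table and 12 were tested. None passed the threshold in either direction in edgeR and DESeq2 called 0. An unadjusted p-value under 0.05 was found for 2 in each tool, against 10.2% of all genes in edgeR and 5.94% in DESeq2. The median log2 fold change was -0.10. Ccne2, the second E cyclin, had 32.4, 34.3 and 16.6 CPM in WT against 13.3, 13.4 and 12.6 CPM in ΔrsCBE, and edgeR gave a log2 fold change of -0.95 (SE 0.37, edgeR adjusted p-value 0.299). Cdkn2d (p19), an inhibitor of Cdk4 and Cdk6 like Cdkn2c, had 43.8, 51.5 and 39.6 CPM in WT against 21.8, 29.97 and 26.5 CPM in ΔrsCBE, and edgeR gave a log2 fold change of -0.73 (SE 0.26, edgeR adjusted p-value 0.238). For both genes the genotypes did not overlap, with ΔrsCBE lower, as held for 8.92% of all tested genes. Cdk2, the kinase of cyclin E, had 74.6, 71.1 and 75.2 CPM in WT against 43.6, 80.6 and 40.4 CPM in ΔrsCBE. ΔrsCBE replicate 2 lay above all WT libraries and the other ΔrsCBE libraries lay below them. The log2 fold change of Cdk2 was estimated at -0.41, with a 95% interval from -0.88 to 0.07 (edgeR adjusted p-value 0.597). Cdkn1a (p21) had 9, 2 and 10 counts in WT and 8, 3 and 1 counts in ΔrsCBE and was not tested, and Cdkn2a was at 0 in all libraries. The Ccnd1 and Cdkn2a counts of 0 allow up to the 3-count floor in each library.

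Downstream of the pocket proteins, 9 of 10 E2F and DP genes were tested, with a median log2 fold change of -0.02. E2f8, an atypical repressor E2F that is itself made in cycling cells, was the 1 gene past the threshold. It fell from 149, 118 and 117 CPM in WT to 66.6, 87.8 and 60.6 CPM in ΔrsCBE, and edgeR gave a log2 fold change of -0.82 (SE 0.18, edgeR adjusted p-value 0.0135). This call was lost without WT replicate 1, WT replicate 3 or ΔrsCBE replicate 3, with edgeR adjusted p-values of 0.113, 0.0542 and 0.139. The activator E2f1 had a log2 fold change of -0.17 and E2f4, a partner of Rbl1 and Rbl2, of 0.08, with edgeR adjusted p-values of 0.919 and 0.953. Of 16 replication genes known as E2F targets, 14 were tested, 13 had negative values, and the median was -0.48. Ccna2 (cyclin A2) and Rrm2 (a ribonucleotide reductase subunit) fell, with log2 fold changes of -1.24 and -0.87 (edgeR adjusted p-values 4.17e-05 and 0.00694). Without WT replicate 3 or without ΔrsCBE replicate 3 Ccna2 alone passed, and without ΔrsCBE replicate 2 there were 5 such genes. The other 12 did not pass.

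**Figure D4:**
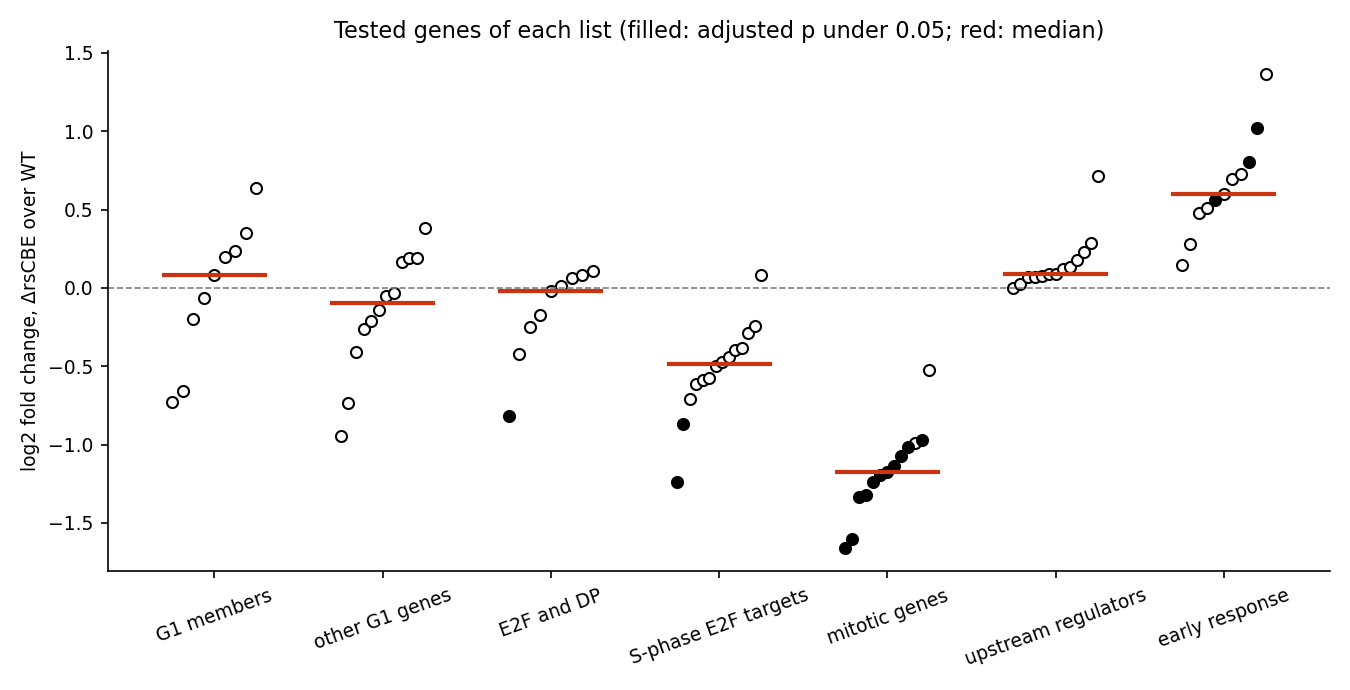
Log2 fold change of ΔrsCBE over WT (vertical axis) for the tested genes of each list, 1 circle per gene, filled where the edgeR adjusted p-value was under 0.05, with the list median in red. The G1 genes centre near 0 with a median of 0.08, and the mitotic genes centre at -1.17.

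The mitotic genes are set beside the G1 genes as genes made in dividing cells, and cycling itself was not measured. Of 14 mitotic genes 13 were tested, all had negative values with a median of -1.17, and 11 fell. Mki67, the proliferation marker, had 3472, 3759 and 3476 CPM in WT against 1528, 2418 and 1521 CPM in ΔrsCBE (log2 fold change -0.97, edgeR adjusted p-value 0.0100). The genes with the smallest p-values, which serve the kinetochore, spindle and mitotic checkpoint, were Cenpf, Kif11, Bub1, Cenpe and Aurkb, with log2 fold changes of -1.34, -1.07, -1.66, -1.02 and -1.24 (edgeR adjusted p-values 0.000157, 0.000945, 0.00216, 0.00247 and 0.00668). Without WT replicate 3, or without ΔrsCBE replicate 3, 6 mitotic genes passed. This list was known to be lower from earlier results of these data and is no independent evidence.

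Library by library, the mean deviation of the 13 mitotic genes from their 6-library average was 0.40, 0.68 and 0.68 on the log2 scale in WT against -0.70, -0.21 and -0.85 in ΔrsCBE. ΔrsCBE replicate 2, the nearest to WT, also had the highest ΔrsCBE values of Rbl1, Cdkn2c and Ccne1. It had the highest ΔrsCBE value of Cdkn1b too, and the lowest ΔrsCBE values of Cdk4, Cdk6 and Rbl2. For Rb1, Ccnd2 and Ccnd3 it lay between the other ΔrsCBE libraries. The same deviation over 14 replication genes was 0.35, 0.24 and 0.21 in WT against -0.20, 0.02 and -0.62 in ΔrsCBE. For Rbl1 alone it was 0.29, 0.12 and 0.53 in WT against -0.40, 0.01 and -0.55 in ΔrsCBE. The early-response genes, which are induced by stimulation or tissue handling, deviated by -0.19, -0.38 and -0.34 in WT and by 0.63, -0.20 and 0.50 in ΔrsCBE. All 11 tested early-response genes had positive values, with a median of 0.60, and 3 passed the threshold. These 3 were Jun, Fos and Jund, with log2 fold changes of 0.80, 1.02 and 0.56 (edgeR adjusted p-values 0.000106, 0.00290 and 0.0359). The part of the early-response genes in the values of the G1 genes was not tested. Without ΔrsCBE replicate 2, 6 early-response genes passed.

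**Figure D5:**
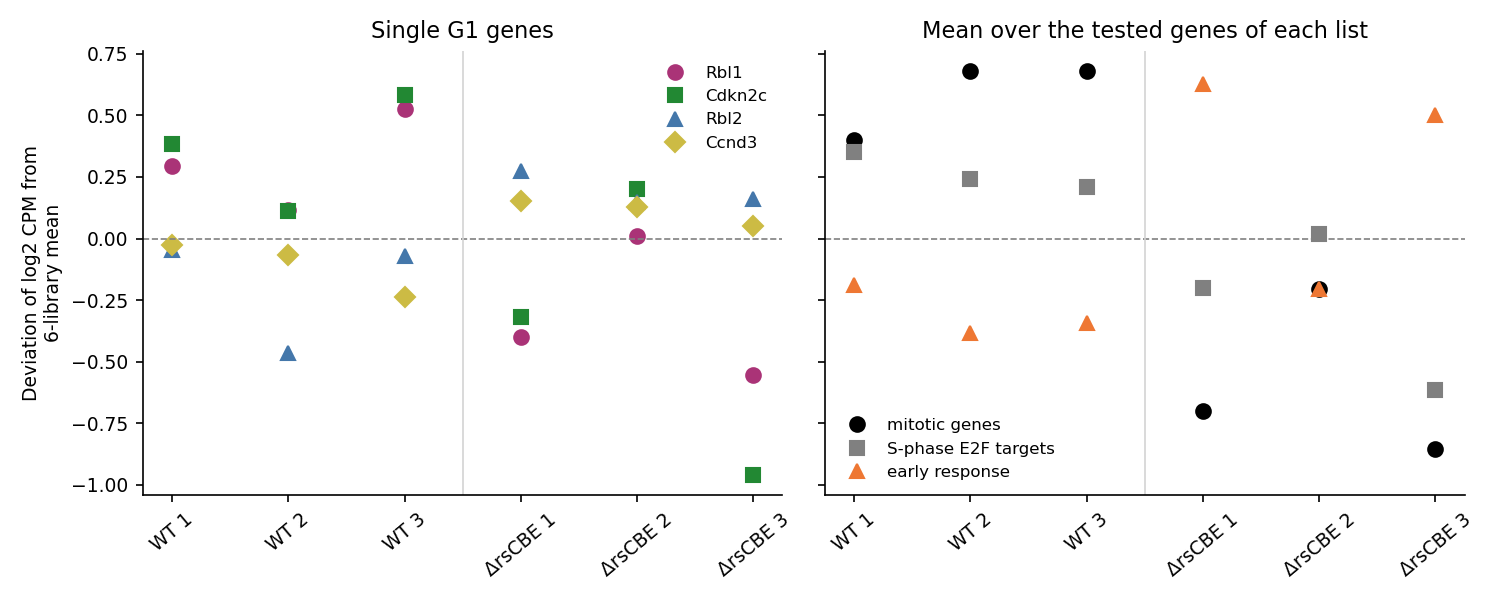
Deviation of log2 CPM from the 6-library mean (vertical axis) in each library, for 4 single G1 genes on the left and as the mean over the genes of 3 lists on the right. Rbl1 and the mitotic genes are above 0 in all WT libraries, and ΔrsCBE replicate 2 lies nearest to WT for the mitotic genes at -0.21.

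Genes whose level followed Rbl1 most closely over the 6 libraries were Spag5, Brd8 and Fbxo5, with Pearson correlations of log2 CPM of 0.993, 0.990 and 0.988 among 7791 other genes. These are the highest of many correlations over 6 points that share depth and genotype, and they are given as a description. Spag5, a spindle protein, and Fbxo5, an inhibitor of the anaphase-promoting complex, had log2 fold changes of -1.02 and -1.23 and passed the threshold (edgeR adjusted p-values 0.00668 and 0.00569). Brd8, a subunit of a histone acetyltransferase complex, had -0.21 and did not (edgeR adjusted p-value 0.620).

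Regulators upstream of the G1 genes in pre-B cells showed no called difference. Of 15 listed, 13 were tested, and edgeR and DESeq2 called 0. In edgeR 1 had an unadjusted p-value under 0.05, against 10.2% of all tested genes. That gene was Stat5a, a transducer of interleukin-7 signals (log2 fold change 0.71, edgeR adjusted p-value 0.426). All 13 values were above 0, with a median of 0.09, beside 0.01 over all tested genes. Foxo1, which activates Cdkn1b and the Rag genes, had a mean of 645 ± 24.5 CPM in WT against 729 ± 106 CPM in ΔrsCBE (SD, n = 3). Its log2 fold change was 0.18, the 95% interval being -0.05 to 0.41 (edgeR adjusted p-value 0.638). Ikzf1 (Ikaros) and Ikzf3 (Aiolos), which promote cell cycle exit of pre-B cells, had log2 fold changes of 0.00 and 0.14, with 95% intervals of -0.19 to 0.19 and -0.05 to 0.32. Myc, which drives growth and cell division, had at most 7 counts in a library and was not tested.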

How the data were processed

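RNA-seq libraries of small pre-B cells (3 WT, 3 ΔrsCBE) were made from total RNA after removal of ribosomal RNA with a strand-specific kit, per the labels' protocols. The authors deposited whole-number read counts per gene symbol without normalization. The submitters' processing notes name Trim Galore 0.6.10, STAR 2.7.11, HTSeq, DESeq2 and the build mm10. The annotation and the strand setting are not given in the sources used here, so reads of genes that overlap on opposite strands may not be separated. Groups and replicate numbers come from the sample titles.

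The counts were tested with edgeR 4.0.16 in R 4.3.3: filterByExpr (minimum count 10) kept 7792 genes, libraries were scaled by TMM, glmQLFit (robust) and glmQLFTest used genotype alone, and p-values were adjusted by Benjamini-Hochberg over all tested genes (threshold 0.05). CPM use the TMM-scaled sum over the kept genes, and log2 CPM a prior count of 2. The fit was checked on simulated data in which all genes had the same dispersion, so differences in spread between genes were not covered. Positions are from GENCODE M21 and promoters from RefSeq.

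The named genes are all members, up to 5 called genes of each list with the smallest p-values, 14 genes fixed by name (among them Cdk2, E2f1, Myc and Mki67), and the 3 genes most like the member with the smallest p-value. Members and lists were chosen with earlier results of these data known. Alternatives were DESeq2 1.42.0 and its size factors, library size alone, other count filters, each library left out, the replicate number as a block, and the male-pattern libraries alone. Protein sequences were not used here.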

Additional observations from a re-analysis of the deposited data

How the results depend on the processing

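Over 119 alternative values of the member log2 fold changes, 116 kept their direction and side of the threshold. Exceptions were Rb1 (-0.0288 in the male-pattern libraries), Ccnd2 (-0.0067 to 1.18 with single libraries left out, reversed without WT replicate 3) and Rbl1 (past the threshold at -0.86 without ΔrsCBE replicate 2). Ccnd2 had 1.32 and Ccne1 -2.14 in the male-pattern libraries, the latter against -1.81 with no count filter. The difference in the log2 ratio of Ccnd2 to Ccnd3 lay between -0.38 and 0.74 with single libraries left out and was 1.06 in the male-pattern libraries, and the other ratios kept their sign. With single libraries left out, the number of genes called ranged from 59 (without WT replicate 3 or ΔrsCBE replicate 3) to 187, against 132. The counts ranged from 0 to 1 for the members, 0 to 1 for E2F and DP genes, 1 to 5 for replication genes, 6 to 12 for mitotic genes and 2 to 6 for early-response genes. Calls rose in some of these fits and fell in others, and the cause was not tested. Early-response calls were 3 as reported, 5 with the replicate block and 7 in the male-pattern libraries. Same-numbered libraries did not deviate together (correlations 0.01 to 0.02 across genes) and not every library correlated best with its own number, so the number was not taken as a pairing. The replicate block gave 136 genes in place of 132, a log2 fold change of -0.67 for Rbl1 (edgeR adjusted p-value 0.145), 0 members called and an exact p-value of 0.25, the smallest possible, for the ratio of Rbl1 to Rbl2. DESeq2 gave 92 genes. Ccne1, Cdkn1a and Myc had too few counts for the reported test, and Ccnd2 had 69 counts in all.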
